A study of Mus musculus with 24 samples.

Results

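The genes described here form a stress response module of 35 members: the targets of the transcription factor ATF4 that supply and transport amino acids, the chaperones of the endoplasmic reticulum (ER), and the sensors and factors that control both. They were taken by gene symbol from the table of batch 2 and followed by Ensembl identifier into the table of batch 1, and all 35 were found in both, among 55471 genes in batch 1 and 13915 in batch 2. The members fell into 17 ATF4 targets, 11 genes of ER chaperones and ER-associated degradation (ERAD), 4 stress sensors and the 3 factors Atf4, Atf5 and Xbp1. They were measured by RNA sequencing in 24 libraries of EO771, a mouse mammary carcinoma cell line, made from 4 derivatives that all had been transduced with a pLNCX2 retroviral vector and tdTomato. X2 cells carried the vector without Ccr7 and served as control. CCR7 cells expressed the chemokine receptor gene Ccr7 and had been sorted as negative for podoplanin (PDPN), a surface glycoprotein, whereas CCR7-PDPN cells were the PDPN-positive sort of the same CCR7 cells. X2-PDPN cells were sorted from X2 for spontaneous PDPN. In the paper's flow cytometry the share of PDPN-positive cells after sorting was lower in X2-PDPN than in CCR7-PDPN. The part of this in the comparisons below was not tested. The derivatives were sorted populations, not clones, and each was represented by 4 technical replicates per batch, so p-values measure the spread between libraries of 1 population. CCR7 was sequenced in batch 1 alone and X2-PDPN in batch 2 alone, while X2 and CCR7-PDPN were in both. In such bulk samples a change in the share of cells that express a gene and a change in RNA per cell cannot be told apart.

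ATF4 is translated when the initiation factor eIF2 is phosphorylated by kinases that sense a lack of amino acids (GCN2, encoded by Eif2ak4) or unfolded protein in the ER (PERK, encoded by Eif2ak3), so its control lies largely in translation and its mRNA level need not follow its activity. ATF4 then raises genes for amino acid synthesis, amino acid import and tRNA charging, together with the stress factors Ddit3 (CHOP) and Atf3. The other sensors of the unfolded protein response are IRE1 (Ern1), which splices Xbp1 mRNA, and ATF6, which is cut from its membrane anchor. XBP1 and ATF6 act mainly on ER chaperones such as Hspa5 (BiP). Levels of mRNA measure none of these protein events, and spliced Xbp1 is not resolved in counts per gene.

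Exact copies of the DNA motifs known for these pathways were found in the promoters of 13 members, and 6 of these promoters are shown because their genes are described with full statistics below. The RefSeq promoters covered 250 bases before to 50 bases after each start site in GRCm38.p6, and 31 of the 35 members had at least 1 such sequence. The C/EBP-ATF response element core, TGATGNAA on either strand, was present in 6 of 15 ATF4 targets, in 1 of 10 ER genes and in 4.51% of all 27025 genes with a promoter. The ER stress response element, which is CCAAT followed by CCACG after 9 bases on either strand, was present in 6 of 10 ER genes, in 0 of 15 ATF4 targets and in 0.137% of all genes. The motif TGACGTGG, known as the unfolded protein response element, was found in 0 of 31 members and in 0.714% of all genes. The sequences are written 5′ to 3′ on the strand of the gene, with the matches in capitals and up to 40 bases on either side. The first is on chr1:191183396-191183483, the second on chr2:152344039-152344086, the third on chr2:119351009-119351096, the fourth on chr11:120643804-120643891, the fifth on chr3:50443614-50443719 and the last on chr2:34771985-34772083.
Atf3 (minus strand): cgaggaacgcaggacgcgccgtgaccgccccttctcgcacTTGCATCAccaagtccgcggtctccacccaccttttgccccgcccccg
Trib3 (minus strand): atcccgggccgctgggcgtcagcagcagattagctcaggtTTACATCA
Chac1 (plus strand): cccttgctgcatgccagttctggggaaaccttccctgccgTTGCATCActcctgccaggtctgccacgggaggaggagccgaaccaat
Pycr1 (minus strand): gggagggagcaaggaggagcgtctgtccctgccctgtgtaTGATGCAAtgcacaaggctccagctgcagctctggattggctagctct
Slc7a11 (minus strand): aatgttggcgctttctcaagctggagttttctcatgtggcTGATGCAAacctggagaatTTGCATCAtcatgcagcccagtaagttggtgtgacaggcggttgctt
Hspa5 (plus strand): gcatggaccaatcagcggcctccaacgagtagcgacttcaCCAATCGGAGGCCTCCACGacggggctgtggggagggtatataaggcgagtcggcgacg

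The Slc7a11 promoter held the C/EBP-ATF core on both strands, and the Trib3 match lay 14 to 21 bases after the start site. The printed Trib3 stretch ends with its match, so no bases after the match are shown. A match describes the letters of the window and is neither a measured binding site nor a cause of the changes given here.

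**Figure D1:**
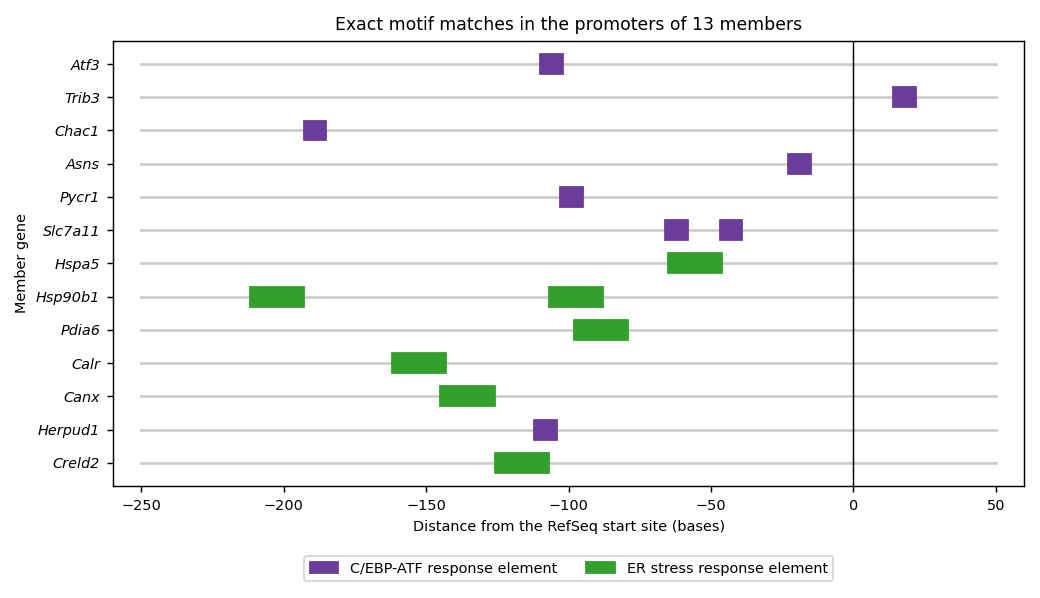
Positions of exact motif matches in the RefSeq promoters of 13 members, with the distance from the start site in bases on the horizontal axis and 1 grey line per promoter window. Purple boxes mark the C/EBP-ATF response element core and green boxes the ER stress response element. The ER stress response element was present in 6 ER chaperone genes, and the C/EBP-ATF core in 6 ATF4 targets and in Herpud1.

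The libraries held 22275468 to 35721027 counts each, and every member had at least 269 counts in every library, so no member was lost to a filter on low counts. Ccr7 and Pdpn followed the labels of all 24 libraries. Of the carcinoma markers, Krt8 was at 415 TPM (read counts scaled by transcript length and library total) or more in every library, whereas Krt18, Epcam and Cdh1 reached at most 0.732, 0.108 and 0.181 TPM in batch 1 and were not listed in the batch 2 table. Of the 5 leukocyte markers in batch 1 the defining Ptprc and Cd3e reached at most 0.0259 and 0 TPM, and only Lyz2 was above 1 TPM. The sum of these markers, nearly all of it Lyz2, was 17.9 to 21.1 TPM in X2, 4.02 to 6.46 TPM in CCR7 and 1.69 to 2.56 TPM in CCR7-PDPN. In batch 2, where only Lyz2 was listed, it was 19.2 to 23.2 TPM in X2, 18.3 to 19.5 TPM in X2-PDPN and 1.11 to 2.05 TPM in CCR7-PDPN. The part of this in the differences below was not tested. The fibroblast list rested on Pdgfra, at 52.1 to 69.9 TPM over all libraries, with Dcn at most 0.0609 TPM and Lum at 0. Endothelial and erythroid lists summed to at most 0.674 and 1.15 TPM.

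Some libraries stood apart. In CCR7 replicate 1, 14 of 17 ATF4 targets were below the mean of the other 3 CCR7 libraries, with a median difference of -0.23 on the log2 scale, and 10 of 11 ER genes were below it with a median of -0.07, while the median of all genes was 0.00. Mitochondrial transcripts made up 0.804% of the counts in that library and 0.347% to 0.449% in the other CCR7 libraries. The mitochondrial share also differed in part with PDPN. It was 0.480% to 0.871% in CCR7-PDPN of batch 1, above those 3 libraries, but CCR7 replicate 1 lay within that range. In batch 2 it was 0.711% to 1.05% in X2-PDPN and 0.435% to 0.641% in X2, without overlap. CCR7-PDPN overlapped X2 in both batches: X2 of batch 1 was at 0.435% to 0.628% and CCR7-PDPN of batch 2 at 0.449% to 0.843%. The part of the mitochondrial share in the PDPN differences below was not tested. CCR7 replicate 3 had 17 of 17 ATF4 targets above the mean of the others, by a median of 0.14. The median within-group SD of the ATF4 targets was 0.13 (log2 CPM) in CCR7 and 0.03 to 0.05 in the other 5 groups. Over the more abundant genes, 6631 in batch 1 and 6657 in batch 2, it was 0.063 in CCR7 and 0.039 to 0.046 elsewhere. The ER genes, at 0.05, were not wider in CCR7. By chi-square per degree of freedom, CCR7 replicate 1 lay 13.5 to 22.5 from the other CCR7 libraries. No other pair within a group exceeded 8.48. Its departure was thus not confined to the ATF4 targets. Comparisons with CCR7 are therefore given with and without replicate 1. The 2 batches were not shown to be independent: a library of X2 or CCR7-PDPN was closest in counts to the library with its own number in the other batch in 15 of 16 cases. The chi-square per degree of freedom was 3.28 to 6.26 between libraries of the same number and 3.60 to 12.0 between libraries of different numbers. Whether the same RNA was sequenced in both batches is not given in the sources used here.

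**Figure D2:**
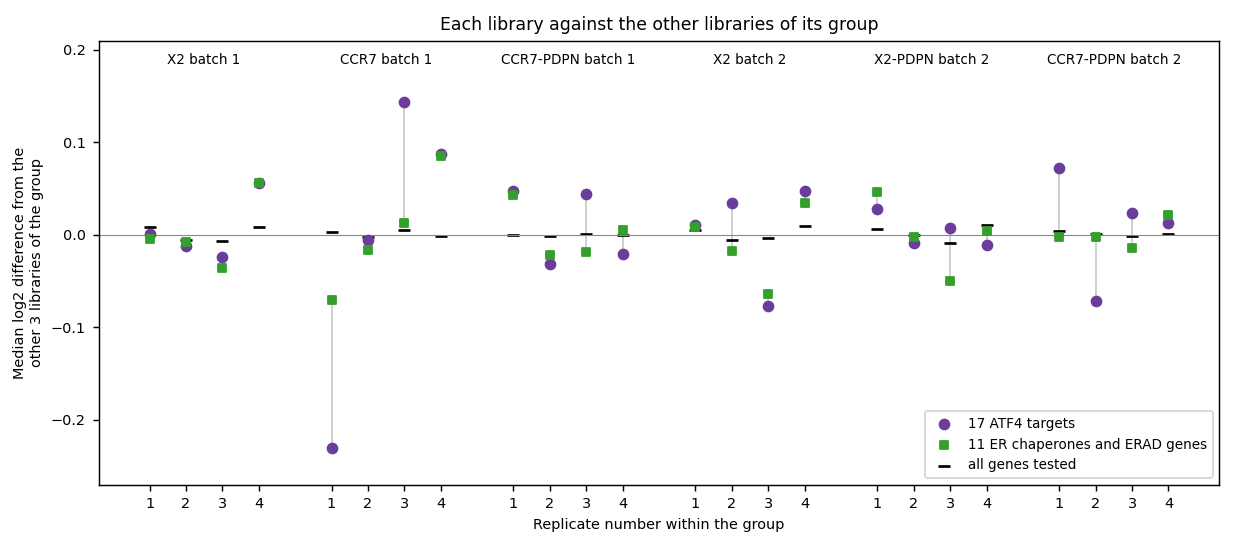
Each library compared with the other 3 of its group: the vertical axis gives the median log2 CPM difference over 17 ATF4 targets (purple points), 11 ER chaperone and ERAD genes (green squares) and all genes tested (black bars), and the horizontal axis the replicate number within each of 6 groups. CCR7 replicate 1 lay lowest for the ATF4 targets, at -0.23, and CCR7 replicate 3 highest, at 0.14.

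Per unit of transcript length, the members spanned a wide range of levels. Group means lay between 7.59 and 15.2 TPM for Slc7a11, the cystine transporter subunit, and between 792 and 2006 TPM for Slc7a5, the large neutral amino acid transporter LAT1. Hsp90b1 (GRP94), an ER chaperone, was at 1040 to 1214 TPM, Atf4 itself at 952 to 1187 TPM, and asparagine synthetase, Asns, at 926 to 1141 TPM. The 4 sensors were between 20.1 and 111 TPM, above Slc7a11 and below Slc7a5, Hsp90b1, Atf4 and Asns. The ratio of the highest to the lowest group mean was largest for Atf3 (2.79), Atf5 (2.56), Slc7a5 (2.53), Ddit3 (2.47), Slc3a2 (2.20) and Slc7a11 (2.00), and smallest for Psat1 (1.09). Comparisons below use CPM, counts scaled by library total and TMM factor, and a gene was called higher or lower at an adjusted p under 0.05 in the quasi-likelihood test of edgeR, adjusted over all genes by the Benjamini-Hochberg method. It was counted as past the fold threshold if its log2 fold change was also above 1 or below -1.

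**Figure D3:**
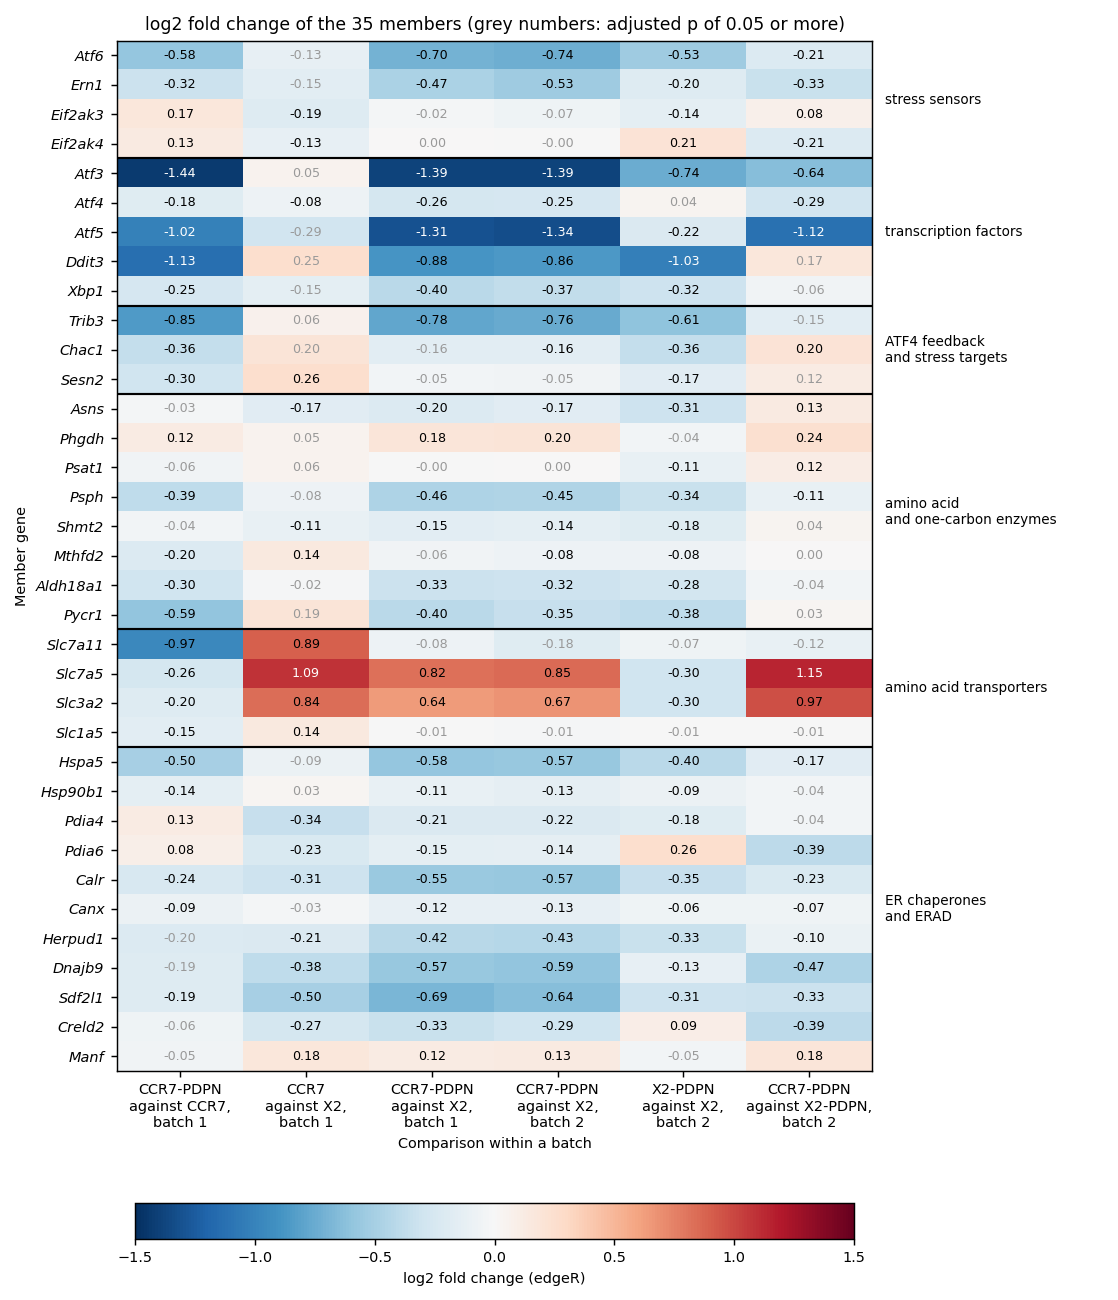
log2 fold changes of the 35 members (rows, by role) in the 6 comparisons within a batch (columns), with red for higher and blue for lower. Numbers in grey had an adjusted p of 0.05 or more. The transcription factors carried the largest falls, down to -1.44 for Atf3, and the transporters Slc7a5 and Slc3a2 the largest rises, up to 1.15.

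The first comparison asked how PDPN-positive cells differed from PDPN-negative cells when both expressed Ccr7. In CCR7-PDPN against CCR7, 23 of 35 members were lower, against 20.7% of the 13261 genes tested, and 5 were higher, against 20.9%. Among the 7243 genes at least as abundant as the lowest member, 23.1% were lower. The falls were deepest in the stress factors Atf3, Ddit3 and Atf5, which were the 3 members past the fold threshold, against 3.27% of all genes. Of the 17 ATF4 targets 13 were lower and 1 was higher, with a median log2 fold change of -0.30, whereas of the 11 ER genes 5 were lower and 2 higher, with a median of -0.14; over all genes the median was 0.00.

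Gene coordinates are those of GRCm38. Atf3 (chr1:191170296-191218039), a repressor of stress-induced transcription, was at 23.5, 32.5, 37.5 and 35.5 CPM in CCR7 and at 12.9, 11.6, 12.0 and 10.8 CPM in CCR7-PDPN. The groups did not overlap, and the log2 fold change was -1.44 (SE 0.139, adjusted p = 1.16e-05). Ddit3 (chr10:127290774-127296288), which encodes the pro-apoptotic factor CHOP, was at 35.1, 55.0, 72.3 and 66.4 CPM in CCR7 and at 27.4, 19.2, 28.7 and 29.1 CPM in CCR7-PDPN. Its change was -1.13 (SE 0.220, adjusted p = 0.0025), with the lowest CCR7 library close to the CCR7-PDPN range. Atf5 (chr7:44812256-44816658), a factor related to ATF4, was at 106, 134, 152 and 154 CPM in CCR7 and at 66.8, 59.4, 68.6 and 74.9 CPM in CCR7-PDPN, and fell by 1.02 (log2; SE 0.121, adjusted p = 9.75e-05). Atf4 fell less, by 0.18 (SE 0.0322, adjusted p = 0.000109), from a mean of 699 ± 33.2 CPM (SD, n = 4) to 616 ± 18.9 CPM. Xbp1 fell by 0.25 (SE 0.0762, adjusted p = 0.0198) with overlapping libraries. Without CCR7 replicate 1 the changes of Atf3, Ddit3 and Atf5 were -1.57, -1.31 and -1.12. Without CCR7 replicate 3 they were -1.35, -0.99 and -0.96, which left Atf3 as the 1 member past the fold threshold. In that last fit 426 of all 13440 genes were past it.

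The feedback and stress targets were all lower in CCR7-PDPN. Trib3 (chr2:152337422-152344032), a pseudokinase that restrains ATF4 and CHOP, was at 181, 254, 313 and 274 CPM in CCR7 and at 148, 128, 154 and 139 CPM in CCR7-PDPN, a change of -0.85 (SE 0.147, adjusted p = 0.00126). Chac1, which degrades glutathione, changed by -0.36 (adjusted p = 0.0104) and Sesn2, a leucine sensor that inhibits mTORC1, by -0.30 (adjusted p = 0.0263). The CCR7 and CCR7-PDPN libraries of Chac1 and Sesn2 overlapped, through CCR7 replicate 1: Chac1 was at 36.6 CPM there and at 47.1 to 53.6 CPM in the other CCR7 libraries. Sesn2 no longer passed the test when CCR7 replicate 3 or 4, or CCR7-PDPN replicate 2 or 4, was left out.

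All 4 amino acid transporters were lower as well. Slc7a11 (chr3:49892526-50443614) was at 38.2, 59.8, 65.1 and 62.3 CPM in CCR7 and at 31.2, 24.4, 30.8 and 28.3 CPM in CCR7-PDPN, a change of -0.97 (SE 0.161, adjusted p = 0.000896), or -1.12 without CCR7 replicate 1. Slc7a5 changed by -0.26 (SE 0.0474, adjusted p = 0.000386), Slc3a2, its heavy chain partner, by -0.20 and the glutamine transporter gene Slc1a5 by -0.15. Slc1a5 lost the call without CCR7 replicate 1 (adjusted p = 0.0543). Among the 8 enzymes 4 were lower, 1 was higher and 3 did not pass the test. Pycr1, an enzyme of proline synthesis, was at 39.6, 41.0, 50.3 and 53.4 CPM in CCR7 and at 29.7, 28.1, 33.1 and 30.9 CPM in CCR7-PDPN, a fall of 0.59 (SE 0.0858, adjusted p = 9.63e-05). Phgdh, the entry enzyme of serine synthesis, rose by 0.12 (SE 0.0324, adjusted p = 0.00399), while Psph, the last enzyme of the same pathway, fell by 0.39 (SE 0.0498, adjusted p = 5.97e-06). Asns was at a difference of -0.03 (adjusted p = 0.439).

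The ER genes changed unequally. Hspa5 (chr2:34771970-34777547), the main ER chaperone, was at 614, 682, 732 and 826 CPM in CCR7 and at 530, 500, 499 and 489 CPM in CCR7-PDPN, and fell by 0.50 (SE 0.0761, adjusted p = 0.000362). Calr, a lectin chaperone, fell by 0.24, whereas the disulphide isomerase genes Pdia4 and Pdia6 rose by 0.13 and 0.08 (adjusted p = 0.0026 and 0.0179). Herpud1 and Dnajb9, both of ERAD, were at -0.20 and -0.19 without passing the test. Of the sensors, Atf6 (chr1:170704674-170867771) fell by 0.58 (SE 0.0865, adjusted p = 0.000343), from 200, 252, 271 and 279 CPM in CCR7 to 175, 159, 170 and 166 CPM, and Ern1 fell by 0.32. The kinase genes Eif2ak3 and Eif2ak4 rose by 0.17 and 0.13. Without CCR7 replicate 1, 24 members were lower, 5 higher and 4 past the fold threshold, against 24.3%, 24.4% and 3.58% of all genes in that fit. Herpud1 and Dnajb9 then passed the test, at -0.28 and -0.29, which made 7 of 11 ER genes lower. The 30 genes tested within 5 Mb of Pdia6 had a median of 0.16, above the rise of Pdia6 itself.

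The same contrast in cells without Ccr7 was X2-PDPN against X2 in batch 2. Here 27 of 35 members were lower, against 28.5% of 13314 genes, and 3 were higher, against 28.2%. Among the 7612 genes at least as abundant as the lowest member, 36.6% were lower. Of the 17 ATF4 targets 14 were lower and 0 were higher, with a median of -0.30, and of the 11 ER genes 8 were lower and 2 higher, with a median of -0.13, beside a median of 0.00 over all genes. Ddit3 was the 1 member past the fold threshold, against 5.05% of all genes. It was at 44.8, 49.7, 44.0 and 51.2 CPM in X2 and at 25.5, 23.6, 22.3 and 21.3 CPM in X2-PDPN, a fall of 1.03 (log2; SE 0.0771, adjusted p = 2.94e-08). Without X2 replicate 4 or X2-PDPN replicate 4 the value was -0.99, so that 0 members were past that threshold. Over all genes, 716 of 13520 and 736 of 13558 were past it in these fits, in that order.

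Atf3 fell in X2-PDPN by 0.74 (SE 0.0552, adjusted p = 1.66e-15), from 28.0, 31.7, 29.1 and 34.3 CPM to 18.8, 19.2, 17.6 and 17.9 CPM, and Trib3 by 0.61 (SE 0.0797, adjusted p = 9.00e-05), from 229, 253, 222 and 274 CPM to 164, 157, 165 and 156 CPM. The groups did not overlap for either gene. Atf5 fell by 0.22 (SE 0.0642, adjusted p = 0.0138), with 165, 165, 149 and 188 CPM in X2 and 140, 144, 146 and 144 CPM in X2-PDPN. Atf4 differed by 0.04 (adjusted p = 0.217). Chac1 fell by 0.36 and Sesn2 by 0.17.

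Of the enzymes, 7 of 8 were lower in X2-PDPN, led by Pycr1 at -0.38 (SE 0.0446, adjusted p = 1.08e-09), Psph at -0.34 and Asns at -0.31, and Phgdh was at -0.04 without passing the test. Slc7a5 fell by 0.30 (SE 0.0280, adjusted p = 3.60e-12), from 964, 965, 943 and 983 CPM to 798, 765, 781 and 789 CPM, and Slc3a2 by the same amount. The 122 genes tested within 5 Mb of Slc7a5 had a median of -0.17, which leaves Slc7a5 at -0.12 once subtracted. Slc7a11 and Slc1a5 were at -0.07 and -0.01, with overlapping libraries. Hspa5 fell by 0.40 (SE 0.0255, adjusted p = 9.30e-18), from 718, 732, 740 and 766 CPM to 579, 559, 542 and 558 CPM. Pdia6 rose by 0.26 (adjusted p = 5.69e-12) and Creld2 by 0.09 (adjusted p = 0.0332), where the genes within 5 Mb had medians of 0.20 and 0.15. With these medians subtracted Pdia6 was at 0.05 and Creld2 at -0.05. The same subtraction also reduced the falls of lower ER genes. Calr went from -0.35 to -0.13, Pdia4 from -0.18 to -0.04, Hsp90b1 from -0.09 to -0.01 and Canx from -0.06 to -0.02. Hspa5, Sdf2l1, Herpud1 and Dnajb9 were then at -0.38, -0.25, -0.21 and -0.12. Among the sensors Atf6 fell by 0.53 (SE 0.0273, adjusted p = 5.98e-21), with 270, 270, 275 and 276 CPM in X2 and 192, 180, 195 and 188 CPM in X2-PDPN, and Eif2ak4 rose by 0.21.

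These 2 comparisons share no library, so their calls can be set side by side. Lower in both were 20 members, which is 87.0% of those lower with Ccr7 and 74.1% of those lower without it. Of all 13030 genes tested in both batches, 1505 were lower in both, which is 55.5% and 39.7% of the respective lists. These shares depend on how many were lower in each comparison. With Ccr7 these were 23 of 35 members and 2714 of 13030 genes, and without it 27 and 3789. The higher shares of the members therefore do not show closer agreement than that of all genes. Eif2ak4 and Pdia6 were higher in both. Eif2ak3 and Pdia4 were higher with Ccr7 and lower without it, as were the medians of the genes within 5 Mb of them, at 0.10 and -0.07 around Eif2ak3 and at 0.09 and -0.14 around Pdia4. With these medians subtracted, Eif2ak3 was at 0.07 and -0.08 and Pdia4 at 0.04 and -0.04. The difference between the 2 PDPN differences was tested over all 24 libraries, which sets batch 1 against batch 2, and 13 of 35 members passed at an adjusted p under 0.05, against 40.8% of 13690 genes, a share no greater than that of all genes. The fall was larger with Ccr7 for Slc7a11, by 0.90 (log2; SE 0.191, adjusted p = 0.000823), for Atf5, by 0.79 (SE 0.138, adjusted p = 0.000125), for Atf3, by 0.69 (SE 0.157, adjusted p = 0.00138), and for Atf4, by 0.22 (SE 0.0413, adjusted p = 4.92e-05). The genes within 5 Mb of Atf4 had a median of 0.03 with Ccr7 and 0.22 without it, and with these subtracted Atf4 was at -0.21 and -0.18. For Eif2ak3 the difference was 0.32 (SE 0.0493, adjusted p = 2.21e-06), for Pdia4 0.31 (SE 0.0402, adjusted p = 8.50e-08) and for Asns 0.28 (SE 0.0390, adjusted p = 3.28e-07). For Ddit3 it was -0.10 (SE 0.242, adjusted p = 0.784), an error that leaves differences of moderate size undetectable. Without CCR7 replicate 1, 19 members passed, against 43.1% of genes, Slc7a11 was at -1.06, and Trib3, at -0.38, passed as well (adjusted p = 0.0154).

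**Figure D4:**
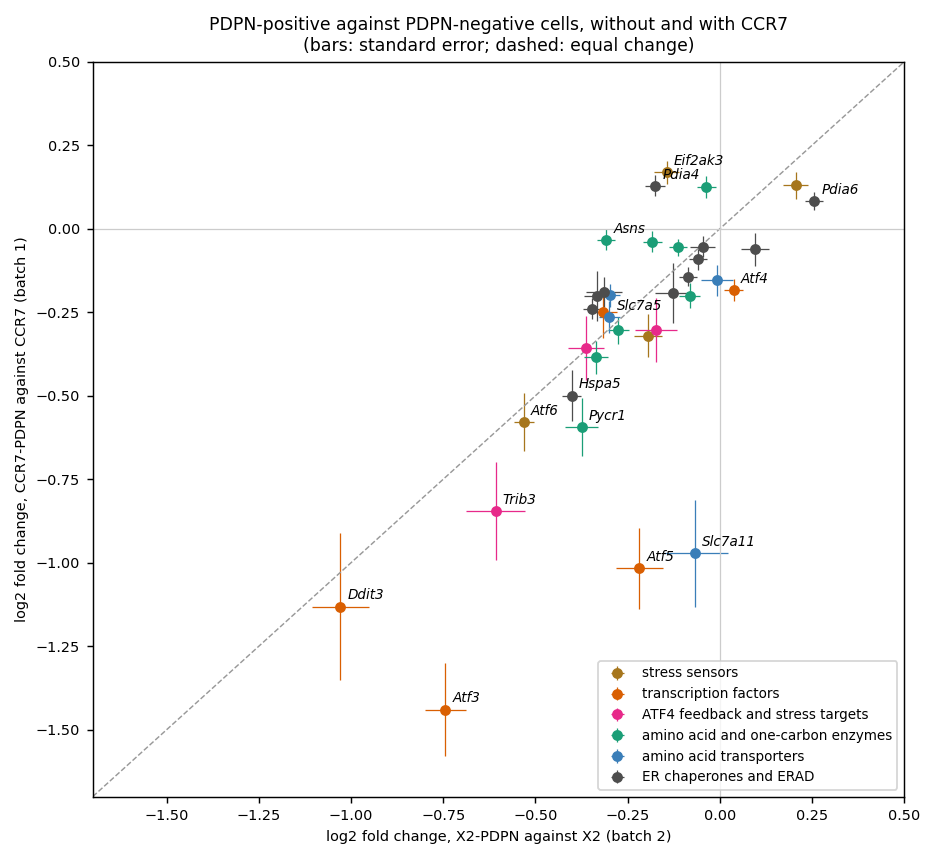
log2 fold change of PDPN-positive against PDPN-negative cells for the 35 members, without Ccr7 (horizontal axis, batch 2) and with Ccr7 (vertical axis, batch 1), coloured by role, with bars for the standard error of each value and a dashed line where both are equal. Atf3, Atf5 and Slc7a11 lay below the line, at -1.44, -1.02 and -0.97 with Ccr7 and -0.74, -0.22 and -0.07 without it.

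PDPN-negative cells with and without Ccr7 were compared as CCR7 against X2 in batch 1. These are single populations that also differ in stretches of neighbouring genes with mostly higher RNA, as given below. DNA was not measured. The members moved in both directions: 7 were higher, against 24% of genes, and 12 were lower, against 25.2%. All 4 transporters were higher, with a median log2 fold change of 0.865, and 7 of 11 ER genes were lower and 1, Manf, was higher, with a median of -0.23. Manf lies where 101 of 121 genes within 5 Mb were higher, with a median of 0.38, and was at -0.21 relative to them. Of the 17 ATF4 targets 6 were higher and 2, Asns and Shmt2, were lower, with a median of 0.14, and the median of all genes was 0.00. Slc7a5 was the 1 member past the fold threshold, against 6.48% of genes.

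Slc7a5 (chr8:121881150-121907694) was at 932, 917, 933 and 942 CPM in X2 and at 1753, 1947, 2146 and 2080 CPM in CCR7, a rise of 1.09 (SE 0.0480, adjusted p = 3.20e-11). It lies in a stretch of chromosome 8 in which most genes were higher in the cells with Ccr7: of the other 128 genes tested within 5 Mb on either side, 94 were higher and 11 lower, with a median of 0.88, and Slc7a5 exceeded that median by 0.21. Slc3a2 (chr19:8706882-8723369), which encodes the heavy chain that Slc7a5 and Slc7a11 both need at the cell surface, rose from 515, 501, 513 and 511 CPM to 832, 918, 957 and 936 CPM, by 0.84 (SE 0.0342, adjusted p = 1.10e-14), where the 229 genes around it had a median of -0.02. Slc7a11 rose from 31.9, 29.8, 27.9 and 31.5 CPM to the CCR7 values given above, by 0.89 (SE 0.161, adjusted p = 0.00106), and by 1.05 without CCR7 replicate 1. Slc1a5 rose by 0.14 (adjusted p = 0.0163), a call that was lost without CCR7 replicate 1 (adjusted p = 0.0645).

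**Figure D5:**
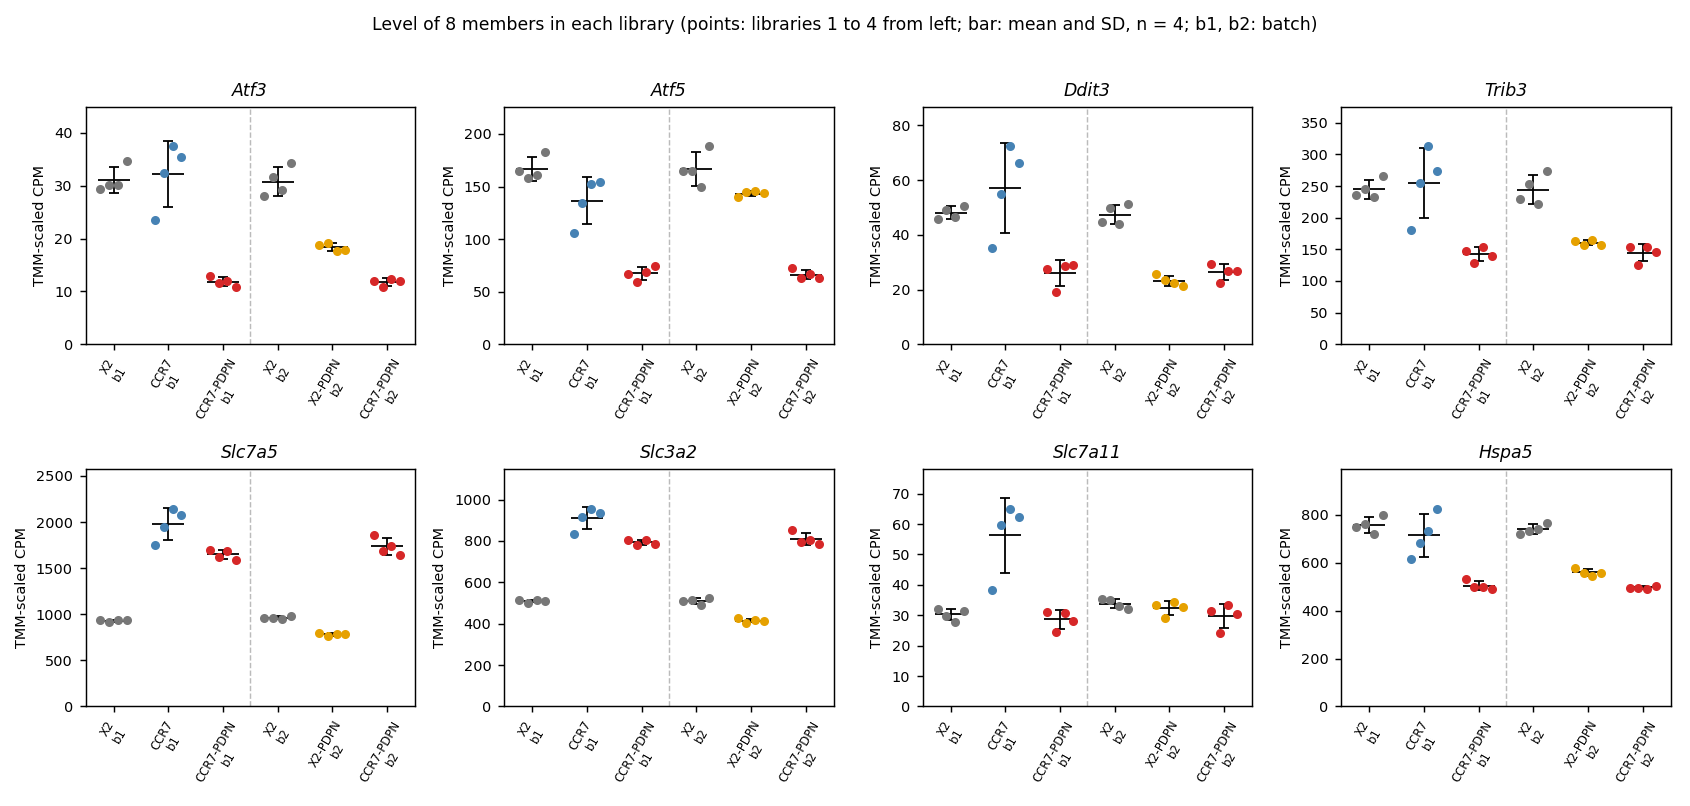
TMM-scaled CPM of 8 members in each of the 24 libraries (points, replicates 1 to 4 from left to right in each group), with the mean and SD of 4 libraries as bars and a dashed line between batch 1 and batch 2. Slc7a5 and Slc3a2 were higher in every library with Ccr7 than in any library without it, and Atf3, Ddit3 and Trib3 were lower in every PDPN-positive library than in any PDPN-negative library.

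Of the other members in CCR7 against X2, Sdf2l1, an ER chaperone cofactor, had the largest fall among ER genes, from 30.6, 28.8, 31.1 and 30.9 CPM to 21.1, 21.4, 21.6 and 21.8 CPM, by 0.50 (SE 0.0438, adjusted p = 3.68e-09). Dnajb9 fell by 0.38, Pdia4 by 0.34, Calr by 0.31 and Creld2 by 0.27. Calr and Herpud1, elsewhere on chromosome 8, had neighbours within 5 Mb with medians of -0.26 and -0.28, beside their own -0.31 and -0.21, so that Herpud1 was at 0.06 relative to its neighbours. Eif2ak3 fell by 0.19 (SE 0.0351, adjusted p = 9.28e-05), with 80.1, 75.7, 78.1 and 77.6 CPM in X2 and 66.4, 65.6, 70.1 and 70.5 CPM in CCR7. Sesn2 was at 0.26 (adjusted p = 0.0461) and lost the call when any X2 library, or CCR7 replicate 2, 3 or 4, was left out. Atf3, Ddit3 and Trib3 were at 0.05, 0.25 and 0.06 and did not pass the test, with CCR7 libraries on both sides of the X2 range. Atf5 was at -0.29 (SE 0.117, adjusted p = 0.0657) and Pycr1 at 0.19 (SE 0.0843, adjusted p = 0.0727). Without CCR7 replicate 1, 11 members were higher, 11 lower and 2 past the fold threshold, against 25.9%, 27% and 6.97% of all genes in that fit. Of the ATF4 targets 10 were higher, and Atf3, Ddit3, Chac1 and Pycr1 passed the test at 0.18, 0.43, 0.30 and 0.26.

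CCR7-PDPN and X2 were compared in both batches, which share the derivatives but, as stated, may share RNA. In batch 1, 23 members were lower, against 30.6% of genes, and 4 were higher, against 30.3%. In batch 2, 25 were lower, against 32.8%, and 4 were higher, against 32%. In each batch 10 of 11 ER genes were lower, with medians of -0.33 and -0.29, and Manf was the 1 that was higher, though it was at -0.29 and -0.30 relative to the median of its neighbours. Of the ATF4 targets 8 and 10 were lower and 3 were higher in each batch, with medians of -0.15 and -0.16. All 5 transcription factors were lower in both. Past the fold threshold were Atf3 and Atf5, in both batches, against 9.45% and 9.63% of genes.

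Atf3 was at 29.4, 30.1, 30.2 and 34.7 CPM in X2 of batch 1, and its changes were -1.39 (SE 0.139, adjusted p = 5.05e-06) in batch 1 and -1.39 (SE 0.0602, adjusted p = 5.20e-24) in batch 2, where CCR7-PDPN was at 12.0, 10.8, 12.4 and 12.0 CPM. Atf5 was at 165, 158, 161 and 183 CPM in X2 of batch 1 and at 72.4, 63.3, 66.7 and 62.6 CPM in CCR7-PDPN of batch 2, with changes of -1.31 and -1.34 (adjusted p = 5.47e-06 and 1.36e-08). Slc7a5 was at 1696, 1622, 1687 and 1592 CPM in CCR7-PDPN of batch 1 and at 1862, 1690, 1743 and 1644 CPM in batch 2. It was higher by 0.82 (SE 0.0478, adjusted p = 5.41e-10) and 0.85 (SE 0.0280, adjusted p = 2.32e-27), less than the median of its neighbours, 0.94 and 0.95. Slc3a2 was higher by 0.64 and 0.67, and Phgdh by 0.18 and 0.20. Sdf2l1 had the largest fall among ER genes, by 0.69 (SE 0.0442, adjusted p = 1.35e-11) and 0.64 (SE 0.0522, adjusted p = 1.41e-14), with 18.7, 18.6, 19.4 and 18.7 CPM in CCR7-PDPN of batch 1 and 19.8, 20.5, 18.1 and 20.9 CPM in batch 2. Hspa5, Calr and Dnajb9 fell by 0.55 to 0.59 in each batch. Relative to its neighbours Calr was at -0.345 and -0.39. Herpud1 was at -0.415 and -0.43, or -0.10 and -0.16 relative to its neighbours. Pdia6 went the other way, from -0.15 and -0.14 to -0.35 and -0.38.

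Atf6 was lower by 0.70 and 0.74, Trib3 by 0.78 and 0.76 and Psph by 0.46 and 0.45, whereas Eif2ak3, Eif2ak4, Slc1a5, Slc7a11, Psat1 and Sesn2 did not pass the test in either batch. Psph was at 109, 105, 108 and 109 CPM in X2 of batch 1 and at 79.7, 75.8, 77.0 and 79.7 CPM in CCR7-PDPN. The difference between the batches was tested for every gene, and 0 of 35 members passed, against 0% of 13690 genes, by edgeR's quasi-likelihood test. DESeq2 called 0 genes. At an unadjusted p under 0.05 in the edgeR test there were 293 genes and 0 members, fewer genes than the 1 in 20 that chance gives. As the batches were not shown to be independent, these counts do not measure agreement between independent runs. The largest difference of a member was 0.11 (log2) and the median 0.02 in absolute value.

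PDPN-positive cells with and without Ccr7 were compared as CCR7-PDPN against X2-PDPN in batch 2. Of the members 15 were lower, against 32% of genes, and 8 were higher, against 31.2%. Of the ER genes, 8 of 11 were lower and 1 was higher, with a median of -0.17, and of the 17 ATF4 targets 6 were higher, a share near that of all genes, and 2 were lower, with a median of 0.04 beside a median of 0.00 over all genes. The 1 higher ER gene was Manf, at 0.18, or -0.10 relative to its neighbours, and Eif2ak3, at 0.08, was at -0.08 relative to its own. The 2 members past the fold threshold, against 9.16% of genes, were Slc7a5 and Atf5, in opposite directions. Slc7a5 was higher by 1.15 (SE 0.0282, adjusted p = 5.10e-32), beside a median of 1.09 over 122 neighbours, and Slc3a2 by 0.97 (SE 0.0268, adjusted p = 1.86e-31), from 426, 405, 416 and 412 CPM to 852, 796, 806 and 788 CPM, beside a neighbour median of 0.02. Atf5 was lower by 1.12 (SE 0.0690, adjusted p = 8.03e-08) and Atf3 by 0.64 (SE 0.0640, adjusted p = 6.80e-12).

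Ddit3 was at 29.3, 22.3, 26.8 and 26.8 CPM in CCR7-PDPN, a difference from X2-PDPN of 0.17 (SE 0.0833, adjusted p = 0.0916), and Trib3 was at -0.15 (SE 0.0816, adjusted p = 0.133). Chac1 was higher by 0.20 (SE 0.0507, adjusted p = 0.00076), at 37.8, 30.9, 35.3 and 34.9 CPM against 29.7, 29.7, 30.4 and 30.7 CPM. Phgdh was higher by 0.24 (SE 0.0259, adjusted p = 9.82e-11), with 496, 482, 466 and 486 CPM against 411, 406, 405 and 416 CPM. Dnajb9 had the largest fall among ER genes, by 0.47 (SE 0.0521, adjusted p = 8.99e-10), at 28.7, 25.4, 25.8 and 27.9 CPM against 39.4, 32.8, 38.8 and 37.7 CPM, followed by Pdia6 and Creld2, each by 0.39. Ern1 fell by 0.33 (SE 0.0397, adjusted p = 8.30e-10), with 45.3, 45.1, 45.5 and 42.3 CPM against 59.4, 52.3, 58.4 and 54.5 CPM. Slc7a11, Slc1a5, Pycr1, Mthfd2, Shmt2 and Aldh18a1 did not pass the test.

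Other genes of the same pathways, which are not members, were counted by list. Of 27 other integrated stress response genes tested, 14 were lower and 1 higher in CCR7-PDPN against CCR7, and 15 lower and 3 higher in X2-PDPN against X2. As given above, 20.7% and 20.9% of all genes were lower and higher in the first comparison and 28.5% and 28.2% in the second. Past the fold threshold in both was Ppp1r15a (GADD34), which directs dephosphorylation of eIF2: it was at 144 ± 43.8 CPM (SD, n = 4) in CCR7 and 71.7 ± 4.35 CPM in CCR7-PDPN (log2 fold change -1.01, adjusted p = 0.0034), and at 127 ± 15.4 CPM in X2 and 58.8 ± 3.41 CPM in X2-PDPN (-1.12, adjusted p = 1.17e-06). Gdf15, a secreted stress cytokine, was lower by 1.40 in X2-PDPN and by 1.07 and 1.11 in CCR7-PDPN against X2. The genes within 5 Mb of Gdf15 had medians of -0.195, -0.22 and -0.19 in these comparisons. With these subtracted Gdf15 was at -1.21, -0.85 and -0.915. The hormone gene Fgf21 was higher by 1.18 and 1.23 in CCR7-PDPN against X2 and by 1.22 in CCR7-PDPN against X2-PDPN. In that last comparison Cth, of cysteine synthesis, was lower by 1.09 at a level under 1 CPM.

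Of 20 cytosolic aminoacyl-tRNA synthetases, which charge tRNAs and are known ATF4 targets in part, 15 were lower and 2 higher in CCR7-PDPN against CCR7. There 20.7% of all genes were lower and 20.9% higher. In X2-PDPN against X2, 18 were lower and 1 higher, against 28.5% and 28.2% of all genes. In CCR7-PDPN against X2-PDPN 10 were higher and 4 lower, against 31.2% and 32% of all genes. Aars and Kars, the 2 that passed the fold threshold in comparisons of cells with and without Ccr7, rose there by 1.42 and 1.39, and the neighbours of each within 5 Mb had a median of 1.39. Aars was at 581 ± 9.32 CPM in X2 and 1237 ± 53.4 CPM in CCR7 (SD, n = 4), a rise of 1.09 beside a neighbour median of 1.04. Of 31 other ER folding and ERAD genes tested, 13 were lower and 2 higher in CCR7-PDPN against CCR7, against 20.7% and 20.9% of all genes. In X2-PDPN against X2, 16 were lower and 3 higher, against 28.5% and 28.2%. In CCR7-PDPN against X2, 21 and 19 were lower in batches 1 and 2, and 3 were higher in each. There 30.6% and 32.8% of all genes were lower, and 30.3% and 32% were higher. Ero1lb, an ER oxidase, fell by 1.15 in CCR7 against X2, by 1.47 and 1.43 in CCR7-PDPN against X2 and by 1.10 in CCR7-PDPN against X2-PDPN. Fkbp14 was at 1.06 CPM in X2 of batch 1, 0.0562 CPM in CCR7 and 0 in CCR7-PDPN.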

How the data were processed

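RNA from 4 derivatives of EO771 cells was sequenced as stranded single-end libraries, with 4 technical replicates per derivative and batch. The authors deposited raw read counts per Ensembl gene, mapped to GRCm38 (mm10 in the submitters' processing notes); batch 1 came from featureCounts, and the batch 2 table held fewer genes. The aligner and its version are not given in the sources used here, and replicates were not pooled. Samples were grouped by derivative and batch. No library was a copy of another of its group.

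Counts of each batch were tested in 1 fit of its 3 groups with edgeR 4.0.16 in R 4.3.3 (TMM factors, filterByExpr, robust quasi-likelihood test, Benjamini-Hochberg adjustment over all genes), after the code had been tested on simulated data. Differences between contrasts came from 1 fit of all 24 libraries with 6 groups. Each standard error was obtained by dividing the size of the log2 change by the root of its F statistic. TPM used the exonic length per gene. The members and all gene lists were chosen with earlier results of these data known. Full statistics were given for members past the fold threshold in any of the 6 comparisons and for the member of each role with the largest change in each. Other pathway genes were named only if past that threshold; members named for context, Slc3a2 among them, were chosen after their values were seen. Alternatives were RLE (the DESeq2 size factors) and upper-quartile factors, no filter on low counts, DESeq2 1.42.0, a replicate block, fits of only the groups compared or of all libraries, and leaving out each library. The subtraction of the median of neighbouring genes was chosen after seeing the data. Promoter sequences came from RefSeq (GRCm38.p6).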

Additional observations from a re-analysis of the deposited data

Results flagged for a closer look

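In 14 of 210 groups of 4 libraries, 1 library lay far from the other 3 for a member, by Dixon's criterion on CPM; chance gives about 1 in 20. Of these, 5 were in CCR7. In CCR7 replicate 1, Slc7a11 was at 38.2 CPM against 59.8 to 65.1 CPM in the others, and Psph at 87.9 CPM against 105 to 108 CPM. In CCR7 replicate 4, Psat1 was low at 692.8 CPM (others 724.7 to 727.8 CPM), while Pdia6 at 435.4 CPM (others 425.0 to 425.7 CPM) and Creld2 at 42.8 CPM (others 37.5 to 38.2 CPM) were high. In CCR7-PDPN of batch 1, Ddit3 was low in replicate 2, at 19.2 CPM against 27.4 to 29.1 CPM, and replicate 1 was high for Mthfd2, at 224.5 CPM against 214.2 to 215.7 CPM, and for Pdia6, at 471.3 CPM against 446.3 to 448.3 CPM. In CCR7-PDPN of batch 2, Ern1 was low in replicate 4, at 42.3 CPM against 45.1 to 45.5 CPM.

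In X2 of batch 1, replicate 4 was high for Atf3, at 34.7 CPM against 29.4 to 30.2 CPM, and low for Psat1, at 684.7 CPM against 692.3 to 693.5 CPM, and replicate 1 was high for Eif2ak4, at 68.4 CPM against 66.2 to 66.5 CPM. In X2 of batch 2, Shmt2 was low in replicate 3, at 589.0 CPM against 626.9 to 632.0 CPM. In X2-PDPN, Psat1 was high in replicate 1, at 669.9 CPM against 651.5 to 654.5 CPM. Several of these gaps were small beside the level of the gene, since the other 3 libraries lay within a few CPM of each other.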

How the results depend on the processing

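Of 1530 values of the 17 members with full statistics under other scalings, filters, fits and left-out libraries, 1463 kept their direction and their side of the threshold, 32 lost a call, 35 gained one and 0 changed direction while called. Leaving out 1 library at a time gave 1 to 4 members past the fold threshold in CCR7-PDPN against CCR7, 5 to 11 higher and 1 to 2 past the threshold in CCR7 against X2, and 0 to 1 past the threshold in X2-PDPN against X2. The lone 1 came without CCR7 replicate 3, the 11 and the 2 without CCR7 replicate 1, and the 0 without X2 or X2-PDPN replicate 4 of batch 2. Over all genes, the same fits of CCR7-PDPN against CCR7 put 424 to 480 past the fold threshold, of 13422 to 13497 tested. In CCR7 against X2, 2899 to 3480 genes were higher and 880 to 936 past the threshold, of 13408 to 13497. In X2-PDPN against X2, 716 to 753 genes were past the threshold, of 13488 to 13569. With the median of genes within 5 Mb subtracted, an alternative chosen after seeing the data, 10 of 156 called values over all 35 members reversed, 26 kept their direction but shrank by over 1.5 times and 8 grew by as much. The reversed values were Slc7a5 in CCR7-PDPN against X2 (-0.11 in both batches), Manf in all 4 comparisons in which it was called (-0.10 to -0.30), Eif2ak3 in CCR7-PDPN against X2-PDPN (-0.08), Pdia6 in CCR7-PDPN against CCR7 (-0.08), Creld2 in X2-PDPN against X2 (-0.05) and Herpud1 in CCR7 against X2 (0.06).

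Within a batch the replicate numbers did not pair the libraries (correlation of deviations between -0.289 and 0.303 for the same number). With the number as a replicate block, 5 members were higher and 25 lower in CCR7-PDPN against CCR7, 8 and 14 in CCR7 against X2, 4 and 23 and 4 and 26 in CCR7-PDPN against X2 in batches 1 and 2, 3 and 27 in X2-PDPN against X2, and 8 and 15 in CCR7-PDPN against X2-PDPN, with 12 differences between the PDPN differences and 0 between batches. Over all 13261 genes of batch 1 the same fits called, in that order, 2698 higher and 2638 lower, 3110 and 3246, and 3968 and 3981. Over 13314 genes of batch 2 they called 4302 and 4412, 3807 and 3845, and 4198 and 4315. The difference between the PDPN differences was called for 2804 higher and 2814 lower of 13690 genes. Between batches the same number gave correlations of 0.057 to 0.380 over 8 pairs of the same derivative, and different numbers -0.164 to 0.108. The libraries are technical replicates of 1 population per derivative, so none of these tests measures variation between independently made lines.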
